A study of Mus musculus with 14 samples.

Results

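The genes described here are 40 genes of the cell cycle and of DNA replication, followed in RNA sequencing libraries of pancreatic β-cells and islets of mice. They were chosen by symbol, with earlier results of these data known. All 40 were matched by Ensembl identifier among the 37310 genes in each of 3 deposited count tables. Of these, 17 act in the entry into S phase and in DNA synthesis and 23 act in G2 phase, mitosis or cytokinesis, with Ccna2 and Mybl2, which also act in S phase, placed among the mitotic genes. The first table holds wild-type β-cells, which make insulin in the pancreatic islets, taken from neonates at postnatal day 6 (n = 3) and adults at day 45 (n = 3). The second holds whole islets of mice 8 weeks old, labelled TSC1 KO (n = 2) or RC control (n = 2). The series' design text calls the former a β-cell knockout of Tsc1, which encodes a brake on the growth-promoting kinase complex mTORC1. The third holds whole islets of mice 4 weeks old, labelled Db (n = 2) or BKS control (n = 2). All 14 libraries carry the strain label C57BL/6, and the labels do not spell out Db or the prefixes RC and BKS. The promoter that drove the deletion of Tsc1, the way β-cells were purified and whether libraries come from separate or pooled animals were not stated in the labels. Headings of 2 neonatal columns both carry the number 3, and n = 3 takes these columns as separate samples. The p-values therefore reflect variation among these libraries, part of which may be technical.

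In a dividing cell, cyclin E with Cdk2 and the E2F transcription factors open S phase, while Cdc6 and Cdt1 load the Mcm2 to Mcm7 helicase onto origins of replication. The sliding clamp Pcna then holds the DNA polymerases on the template, and Tyms and ribonucleotide reductase supply nucleotides. Later, cyclins A and B with Cdk1, the Aurora and Polo kinases, kinesins and kinetochore proteins carry out mitosis, and the anaphase-promoting complex with Cdc20 and Ube2c ends it. S phase genes are classically driven by E2F, and mitotic genes by the CHR element, often next to a CCAAT box, with Foxm1 and Mybl2. Rodent β-cells divide in the first weeks of life and rarely in the adult.

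The promoters of 6 genes that passed the test in at least 1 comparison below are shown as examples. They are Mcm6, Cdk2 and Mcm2 among the S phase genes, and Mki67, Top2a and Kif11 among the mitotic ones. The S phase genes shown passed in Db islets. Mcm3, the only S phase gene that passed in adult β-cells, is not shown. Each line gives the 160 bases before the transcription start of the RefSeq promoter table, build GRCm38.p6, written 5′ to 3′ along the gene. Capitals mark matches on either strand to 3 sets of letters. These are E2F (TTTGGCGC, TTTCGCGC, TTTCCCGC or TTTGCCGC), CHR (TTTGAA or TTCGAA) and CCAAT.
Mcm6: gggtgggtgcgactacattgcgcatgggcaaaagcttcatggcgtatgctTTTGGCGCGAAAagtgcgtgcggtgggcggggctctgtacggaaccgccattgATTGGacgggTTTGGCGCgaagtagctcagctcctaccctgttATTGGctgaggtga
Cdk2: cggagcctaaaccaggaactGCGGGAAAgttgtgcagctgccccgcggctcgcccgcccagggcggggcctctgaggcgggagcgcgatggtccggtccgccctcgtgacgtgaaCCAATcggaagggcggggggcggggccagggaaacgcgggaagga
Mcm2: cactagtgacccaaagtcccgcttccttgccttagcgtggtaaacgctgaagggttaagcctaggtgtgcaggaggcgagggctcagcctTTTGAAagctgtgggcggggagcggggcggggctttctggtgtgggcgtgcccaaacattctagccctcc
Mki67: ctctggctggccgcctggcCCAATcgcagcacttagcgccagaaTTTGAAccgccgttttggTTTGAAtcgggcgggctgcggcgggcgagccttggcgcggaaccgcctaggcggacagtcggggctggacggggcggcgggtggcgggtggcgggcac
Top2a: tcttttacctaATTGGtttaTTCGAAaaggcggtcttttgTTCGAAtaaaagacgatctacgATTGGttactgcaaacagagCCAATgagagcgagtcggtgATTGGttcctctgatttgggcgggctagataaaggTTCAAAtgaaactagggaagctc
Kif11: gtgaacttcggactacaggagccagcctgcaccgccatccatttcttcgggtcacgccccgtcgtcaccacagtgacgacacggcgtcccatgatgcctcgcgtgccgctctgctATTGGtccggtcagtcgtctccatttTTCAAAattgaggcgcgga
The stretches lie at chr1:128359706-128359865 (Mcm6), chr10:128705052-128705211 (Cdk2), chr6:88898781-88898940 (Mcm2), chr7:135716380-135716539 (Mki67) and chr11:99024190-99024349 (Top2a), all on the minus strand, and at chr19:37376222-37376381 (Kif11) on the plus strand. In Mcm6 the first E2F match overlaps another on the opposite strand, so the capitals run together. Mcm2, Mki67, Top2a and Kif11 hold a CHR match in the stretch shown, and Mcm6 and Cdk2 hold an E2F match.

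Over the full windows, 250 bases before to 50 bases after each start, 15 of the 17 S phase genes and 18 of the 23 mitotic genes had an entry. Among S phase genes 8 of 15 held an E2F match, 10 held CCAAT and 3 held a CHR match, all 3 along with CCAAT. Among mitotic genes 1 of 18, Cdk1, held an E2F match, 15 held CCAAT and 14 held a CHR match, all 14 along with CCAAT. Of all 27025 genes with such a window, 2.605% held an E2F match, 21.66% a CHR match, 41.06% CCAAT and 9.654% both CHR and CCAAT. Ccne2, Mcm4, Ccna2, Aurkb, Foxm1, Tpx2 and Kif20a had no entry. The motifs were picked with knowledge of the gene groups and of earlier results, and a match of letters is a description of the sequence, not of binding.

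**Figure D1:**
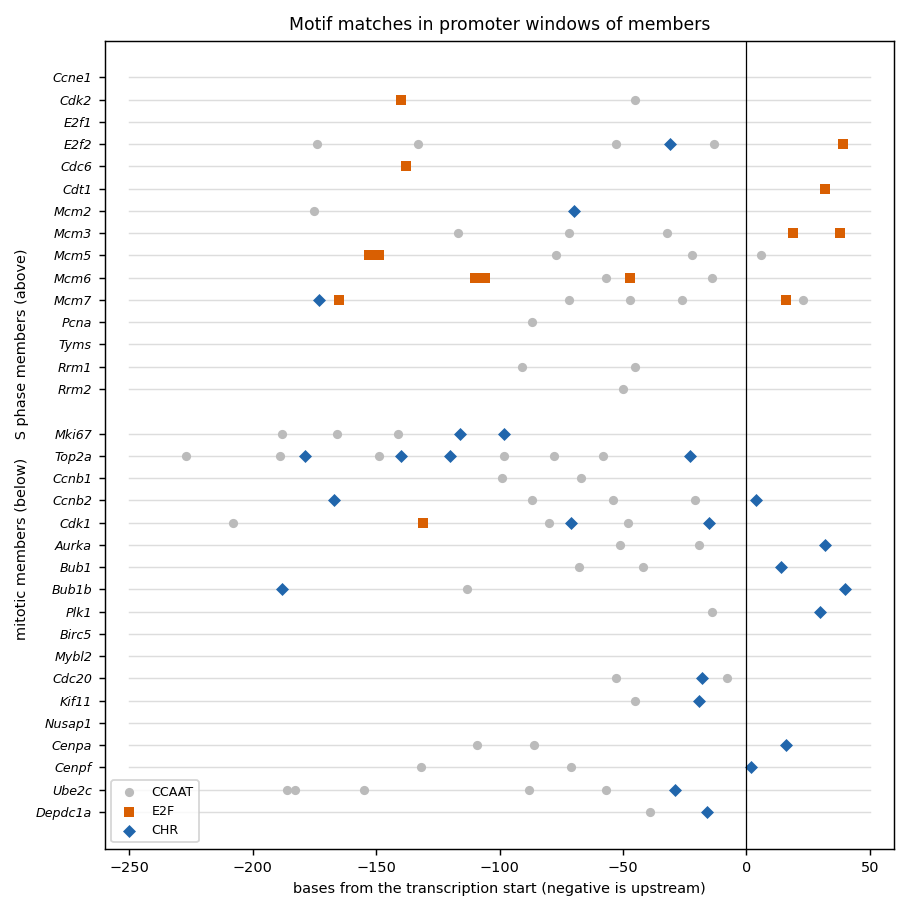
Matches of the E2F letters (squares), the CHR letters (diamonds) and CCAAT (circles) in the promoter windows of the 33 genes with an entry. The horizontal axis is the distance from the transcription start in bases. Genes with more than 1 start site (E2f2 and Mcm7) are drawn on 1 line. E2F matches lie mostly among the S phase genes above, and CHR matches among the mitotic genes below.

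Gene counts per library ranged from 12696006 to 16222921 in β-cells, from 3507929 to 6212629 in RC control and TSC1 KO islets and from 9020767 to 17688772 in BKS control and Db islets. Levels are given as CPM, counts scaled to a common library total by TMM within each table. The tables were normalized separately, so levels set side by side across tables carry no test. The summed level of 10 β-cell markers was 24403 to 33545 CPM in neonatal and 55081 to 90900 CPM in adult β-cells. It was 235001 to 265505 CPM in RC control and 12857 to 13364 CPM in TSC1 KO islets, and 599938 to 920478 CPM in BKS control and 427662 to 494645 CPM in Db islets. Summed markers of endothelial cells were between 4.35 and 33.0 CPM in the β-cell libraries, with Cldn5 at 0 in all 6, and between 621 and 5384 CPM in the islet libraries. Tsc1 itself stood at 25.1 and 54.1 CPM in RC control and 31.0 and 34.4 CPM in TSC1 KO islets (edgeR adjusted p = 0.638). Counts over a whole gene in whole islets do not check a deletion in 1 cell type, and the deleted part was not stated in the labels.

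The 40 genes differed widely in level. Per kilobase of the longest transcript, neonatal β-cells held most of Mki67, a protein that coats mitotic chromosomes (39.95 ± 11.8 CPM per kilobase, SD), then Top2a, the topoisomerase that untangles replicated DNA (29.1 ± 7.43), Pcna (24.1 ± 9.59) and Mcm2 (18.4 ± 4.60). Neighbours in that order differed by less than their spread. In adult β-cells Pcna (17.2 ± 2.22), Mki67 (16.5 ± 5.34), E2f1 (11.9 ± 3.28) and Top2a (11.4 ± 3.41) led, again with overlapping spreads. Among islets, Pcna stood first in RC control (14.7 ± 4.00) and TSC1 KO (16.0 ± 1.99) libraries, and E2f1 in BKS control (8.75 ± 1.76) and Db (12.3 ± 0.197) libraries. The lowest were Bub1 in neonatal β-cells (0.668 CPM per kilobase) and Depdc1a in adult β-cells (0.140).

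Summed CPM, uncorrected for transcript length, was higher over mitotic than over S phase genes in β-cells and not in most islet libraries. In adult libraries 1 and 2 this rested on Mki67. The 23 mitotic genes summed to 1193, 677 and 1155 CPM in neonatal β-cells and 256, 405 and 511 CPM in adult β-cells. The 17 S phase genes summed to 550, 334 and 570 CPM in neonatal and 220, 262 and 297 CPM in adult β-cells. The mitotic sum was thus 2.17, 2.03 and 2.03 times the S phase sum in neonatal and 1.1605, 1.55 and 1.72 times in adult β-cells. In RC control islets the ratio was 0.498 and 0.679, against 0.335 and 0.380 in TSC1 KO islets. In BKS control islets it was 1.09 and 1.23, against 0.317 and 0.373 in Db islets. The groups of a table did not overlap in this ratio, with or without Mki67, which alone made up 37.9% to 45.8% of the mitotic sum in β-cells and 7.13% to 15.6% in islets. The ratio over chosen genes is given as a description, with no test.

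**Figure D2:**
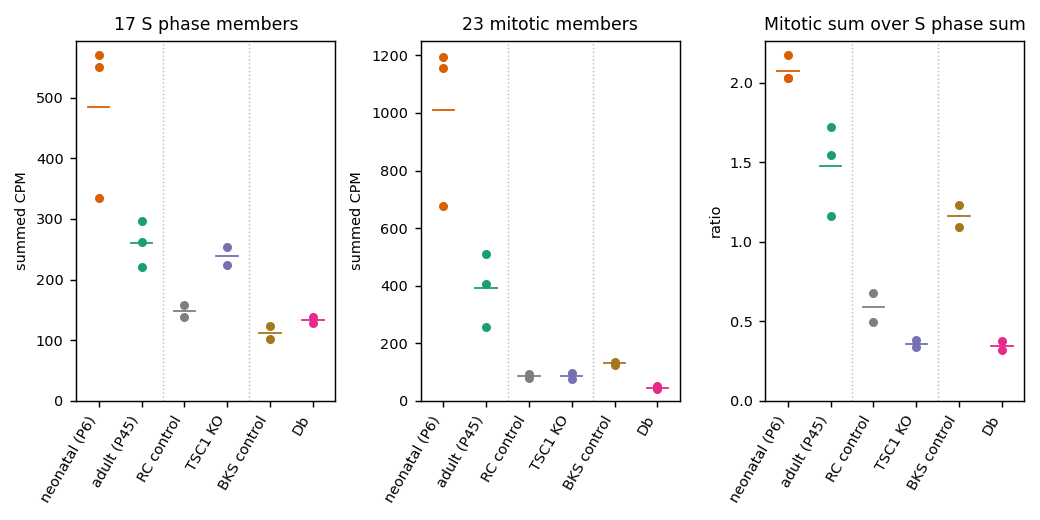
Summed CPM of the S phase genes, summed CPM of the mitotic genes and the ratio of the mitotic to the S phase sum, with 1 point per library and a bar at each group's mean. Dotted lines part the 3 tables, which were normalized separately. The ratio is lower in adult than in neonatal β-cells, and lower in Db and in TSC1 KO islets than in their controls.

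Adult β-cells were first compared with neonatal β-cells, which addresses how the cells change as they mature. Mitotic genes fell: 10 of the 23 were called lower and none higher, in a fit that called 3.6% of the 14304 genes tested lower and 3.38% higher (edgeR quasi-likelihood test, adjusted p under 0.05). Of the 17 S phase genes 1 was called lower, Mcm3, and none higher. The median log2 fold change was -1.52 over the mitotic genes and -0.94 over the S phase genes, against -0.03 over all genes tested. Before adjustment, 17 mitotic and 10 S phase genes had p under 0.05, all lower in adult cells. The groups of libraries did not overlap for 14 mitotic and 7 S phase genes, all lower in adult cells, while 13.4% of all genes tested were lower and 14% higher without overlap.

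**Figure D3:**
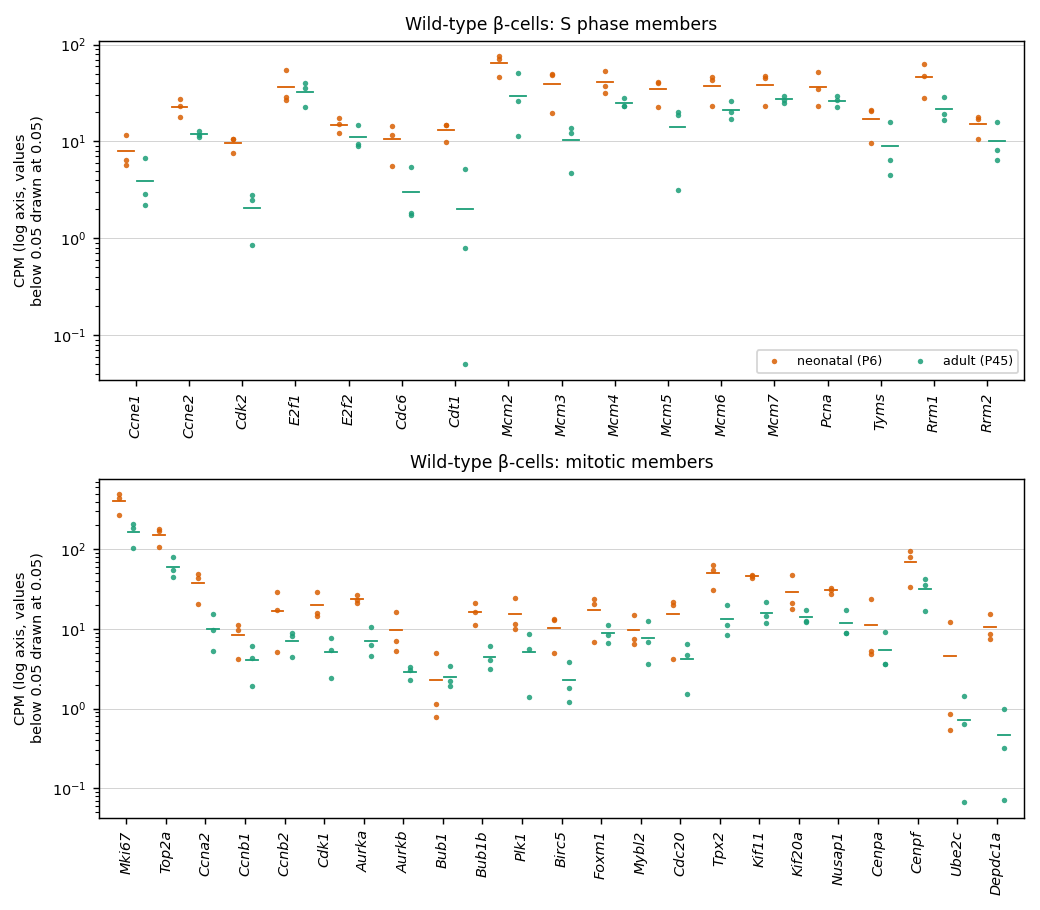
CPM of each of the 40 genes in the 3 neonatal and 3 adult β-cell libraries on a log axis, with a bar at each mean and values below 0.05 drawn at 0.05. For most mitotic genes in the lower panel the adult points lie below the neonatal ones, and for most S phase genes in the upper panel the groups touch or overlap.

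Among the regulators of S phase entry no gene passed the test. Ccne1, which encodes cyclin E1, stood at 5.72, 6.46 and 11.6 CPM in neonatal libraries 1, 3a and 3b and 2.88, 2.21 and 6.72 CPM in adult libraries 1 to 3 (edgeR adjusted p = 0.506 for a log2 fold change of -1.01 ± 0.75 SE). In this gene the highest adult library lay among the neonatal ones. Its partner kinase Cdk2 was at 10.6, 7.53 and 10.7 CPM in neonatal and 2.47, 0.857 and 2.80 CPM in adult libraries, without overlap (-2.23 ± 0.77 SE, edgeR adjusted p = 0.0968). E2f1, the transcription factor released by the retinoblastoma protein, was at 54.0, 27.0 and 28.5 CPM in neonatal and 22.5, 39.9 and 35.5 CPM in adult libraries. These overlapped throughout (-0.16 ± 0.34 SE, edgeR adjusted p = 0.858), and the sign turned when neonatal library 1 or adult library 1 was left out. The origin-loading factors Cdc6 (-1.80 ± 0.73 SE) and Cdt1 (-2.71 ± 1.14 SE) had large differences without overlap and wide errors, with edgeR adjusted p = 0.163 and 0.2.

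The 6 helicase subunits all had negative log2 fold changes, from -1.93 (Mcm3) to -0.50 (Mcm7). Mcm3 fell from 49.1, 19.8 and 48.1 CPM in the neonatal libraries to 4.68, 13.8 and 12.2 CPM in the adult ones (3.80-fold, -1.93 ± 0.45 SE, edgeR adjusted p = 0.0155). The highest adult library lay below the lowest neonatal library. That call was lost without neonatal library 1 (0.0772), neonatal library 3b (0.0542) or adult library 1 (0.072), and the alternatives spanned 4.28e-05 to 0.0772. Mcm2 was at 75.8, 45.9 and 70.8 CPM in neonatal and 25.9, 11.4 and 50.2 CPM in adult libraries, with adult library 3 above the lowest neonatal one (-1.14 ± 0.44 SE, edgeR adjusted p = 0.154). Mcm5 was at 39.7, 22.5 and 41.1 CPM in neonatal and 3.14, 18.9 and 20.2 CPM in adult libraries, without overlap (-1.29 ± 0.55 SE, edgeR adjusted p = 0.197).

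For the clamp and the nucleotide enzymes no gene passed. Pcna was at 34.6, 23.1 and 52.0 CPM in neonatal and 26.8, 22.5 and 29.1 CPM in adult libraries, with the lowest neonatal value inside the adult range (-0.49 ± 0.33 SE, edgeR adjusted p = 0.461). Rrm2, the regulated subunit of ribonucleotide reductase, was at 17.8, 10.7 and 17.1 CPM in neonatal and 8.09, 16.0 and 6.40 CPM in adult libraries (-0.58 ± 0.49 SE, edgeR adjusted p = 0.573). Its large subunit Rrm1 had a log2 fold change of -1.11 ± 0.34 SE (edgeR adjusted p = 0.062).

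Of the chromosome and proliferation markers, Mki67 was at 498, 270.0 and 438 CPM in neonatal libraries 1, 3a and 3b and 105, 185 and 207 CPM in adult libraries 1 to 3, with no overlap. It fell 2.43-fold (-1.28 ± 0.27 SE, edgeR adjusted p = 0.0154). Top2a was at 168, 108 and 179.8 CPM in neonatal and 44.7, 54.5 and 79.2 CPM in adult libraries, also without overlap, and fell 2.56-fold (-1.35 ± 0.25 SE, edgeR adjusted p = 0.00353). In both genes neonatal library 3a was the lowest neonatal library and adult library 3 the highest adult one.

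Among the mitotic cyclins, kinases and checkpoint genes, 4 fell. Cdk1, the kinase that drives entry into mitosis, was at 29.1, 14.5 and 15.9 CPM in neonatal and 2.41, 5.50 and 7.68 CPM in adult libraries (3.83-fold, -1.94 ± 0.53 SE, edgeR adjusted p = 0.0377). Ccna2, which encodes cyclin A2, fell 3.73-fold (-1.90 ± 0.44 SE), and the spindle pole kinase Aurka fell 3.32-fold (-1.73 ± 0.44 SE). Bub1b, which encodes a checkpoint protein that holds back anaphase, fell 3.62-fold (-1.86 ± 0.53 SE). Ccnb1, which encodes cyclin B1, was at 11.2, 4.17 and 9.80 CPM in neonatal and 1.94, 4.28 and 6.08 CPM in adult libraries, with overlap (-1.03 ± 0.73 SE, edgeR adjusted p = 0.484). Plk1, the Polo kinase, was at 24.6, 9.89 and 11.4 CPM in neonatal and 1.40, 5.57 and 8.56 CPM in adult libraries, without overlap (-1.57 ± 0.64 SE, edgeR adjusted p = 0.17). Aurkb (-1.72 ± 0.72 SE), Ccnb2 (-1.25 ± 0.58 SE) and Birc5 (-2.19 ± 0.76 SE), whose product partners Aurkb, were not called. Bub1 had 0.14 ± 1.30 SE.

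Neither mitotic transcription factor passed. Foxm1 was at 20.9, 6.93 and 23.7 CPM in neonatal and 6.69, 8.49 and 11.3 CPM in adult libraries, where neonatal library 3a lay among the adult ones (-0.96 ± 0.51 SE, edgeR adjusted p = 0.309). Mybl2 had -0.33 ± 0.62 SE.

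Of the spindle and chromosome segregation genes, Tpx2, which builds microtubules around chromosomes, was at 55.2, 31.3 and 64.3 CPM in neonatal and 8.43, 11.3 and 19.9 CPM in adult libraries and fell 3.80-fold (-1.93 ± 0.38 SE, edgeR adjusted p = 0.00569). The kinesin Kif11, which pushes spindle poles apart, was at 48.1, 43.3 and 46.3 CPM in neonatal and 11.8, 14.5 and 21.8 CPM in adult libraries and fell 2.86-fold (-1.52 ± 0.32 SE, edgeR adjusted p = 0.00845). Nusap1, a microtubule-bundling protein, fell 2.60-fold (-1.38 ± 0.38 SE). In all 3 genes the groups did not overlap. Depdc1a had the largest fold change among the called genes, from 8.59, 7.53 and 15.3 CPM to 1.00, 0.0714 and 0.320 CPM (-4.46 ± 0.99 SE, edgeR adjusted p = 0.0118), and rests on 15, 1 and 4 counts in the adult libraries. Without adult library 1 its log2 fold change was -5.71. Cenpa (-1.04 ± 0.71 SE), the histone variant of centromeres, Cenpf (-1.15 ± 0.40 SE), Kif20a (-1.03 ± 0.41 SE), Cdc20 (-1.85 ± 0.68 SE) and Ube2c (-2.66 ± 1.54 SE) were not called.

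These calls lean on single libraries. Neonatal library 3a had the lowest neonatal value for 15 of 17 S phase and 18 of 23 mitotic genes, adult library 1 the lowest adult value for 17 mitotic genes and adult library 3 the highest for 18. Only Top2a and Tpx2 kept their call whichever library was left out, and the number of mitotic genes called lower ranged from 4 (without neonatal library 1, adult library 1 or adult library 2) over 5 (without neonatal library 3b) to 14 (without neonatal library 3a). In limma-voom, Cdk1 (0.0586), Bub1b (0.0856) and Depdc1a (0.0925) were not called, and over all alternatives their adjusted p spanned 0.0078 to 0.179, 0.00915 to 0.182 and 2.01e-05 to 0.0925. Summed mesenchymal markers were 19.9, 11.2 and 227 CPM in neonatal and 12.5 to 44.9 CPM in adult libraries, and immune markers 17.1 to 55.03 CPM and 43.8 to 89.3 CPM. Of the markers tested, none of 8 mesenchymal, 5 immune or 6 endothelial genes was called. Over all genes tested, 3.6% were called lower and 3.38% higher. Duct markers summed to 770.3 to 998 CPM in neonatal and 430.5 to 545 CPM in adult libraries, with 4 of 8 called lower. Of 7 other endocrine and 8 acinar markers 1 each was called lower, and 5 of 10 β-cell markers were called higher. Their part in the result was not tested.

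Other genes of the pathway were taken from 3 lists, in the fit that called 3.6% of all genes lower and 3.38% higher. Of 47 further replication genes, 3 fell and none rose: Uhrf1 (-2.23 ± 0.44 SE), which maintains DNA methylation at the fork, Ticrr (-3.60 ± 0.83 SE), which helps fire origins, and Rfc5 (-1.99 ± 0.50 SE), a subunit of the clamp loader. Of 57 further mitotic genes tested, 12 fell and none rose. The 5 with the lowest p were the condensin subunits Ncapd2 (-1.40 ± 0.27 SE) and Ncaph (-2.64 ± 0.57 SE), the cytokinesis kinesin Kif23 (-1.91 ± 0.45 SE), the kinase Melk (-2.10 ± 0.53 SE) and the midzone protein Prc1 (-1.161 ± 0.296 SE). Of 26 regulators of G1 tested, 1 fell, Fzr1, an activator of the anaphase-promoting complex (-0.96 ± 0.23 SE), and none rose, a share near the 3.6% over all genes. The median log2 fold changes of the 3 lists were -0.86, -1.24 and -0.33. Ncapd2 and Uhrf1 kept their call with any library left out, and the other 7 did not.

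**Figure D4:**
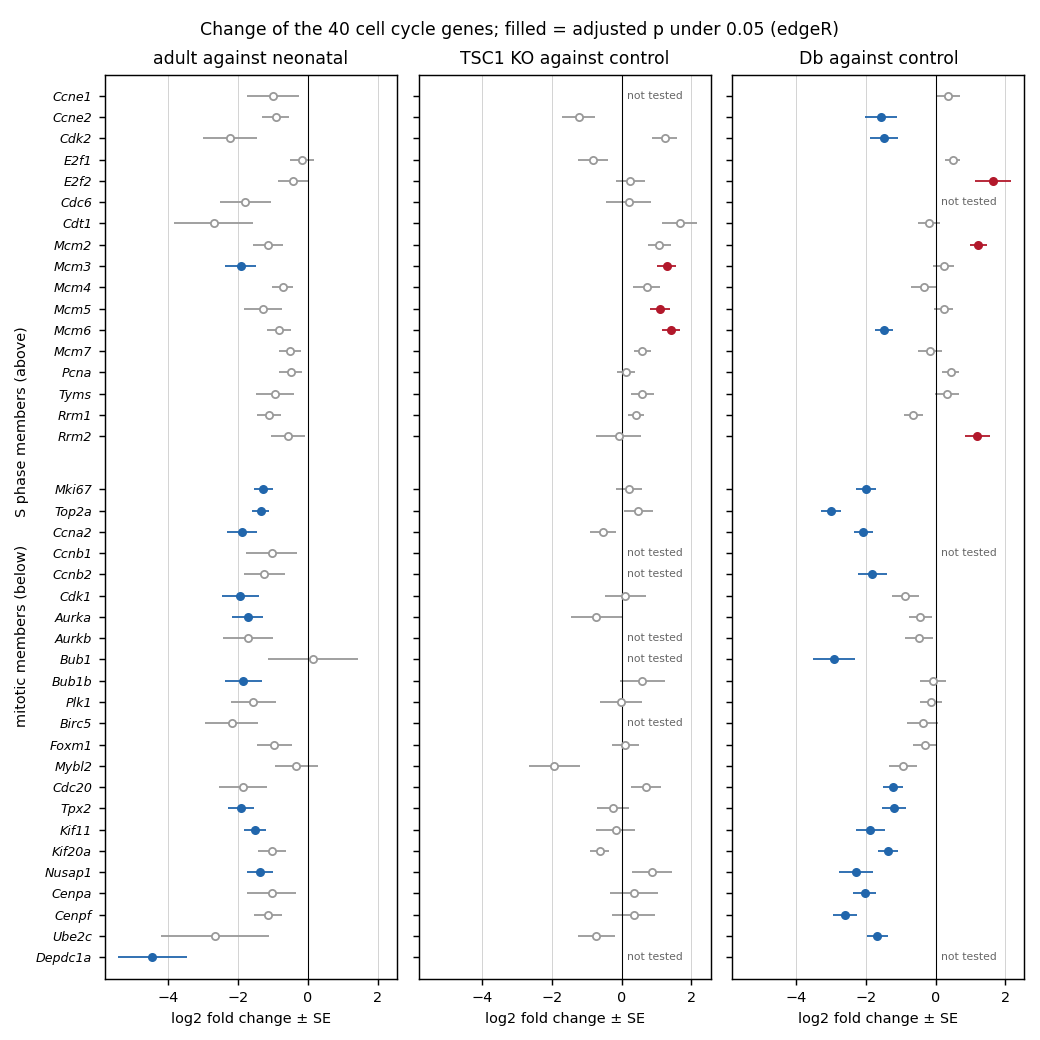
Log2 fold change ± SE of each gene in the 3 comparisons, S phase genes above and mitotic genes below, with filled points where the edgeR adjusted p is under 0.05. Most points of the first panel lie left of 0. In TSC1 KO islets the filled points are Mcm3, Mcm5 and Mcm6, to the right. In Db islets the mitotic genes lie left of 0 and the S phase genes on both sides.

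The second comparison, of TSC1 KO with RC control islets (n = 2 each), addresses what the loss of Tsc1 changes in islets. Genes of the replicative helicase rose: Mcm3, Mcm5 and Mcm6 were the 3 of 16 S phase genes tested that were called higher, and none was called lower, in a fit that called 8.63% of all 14515 genes higher and 10% lower. No mitotic gene passed among 17 tested, with 0 higher and 1 lower at an unadjusted p under 0.05 (Mybl2) in edgeR and 0 called in DESeq2 and in limma-voom. The median log2 fold change was 0.59 over the S phase genes and 0.10 over the mitotic genes, against -0.00 over all genes, while scaling by library size alone gave a mitotic median of -0.17 and -0.25 over all genes. The groups did not overlap for 10 higher and 2 lower S phase genes tested, and for 2 higher and 4 lower mitotic genes tested, where 33.6% and 34% of all genes were higher and lower without overlap. In bulk samples, fewer cells of a type and less RNA per cell cannot be told apart.

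Mcm6 was at 17.4 and 12.5 CPM in RC control and 37.3 and 42.5 CPM in TSC1 KO islets, 2.67-fold higher (1.41 ± 0.25 SE, edgeR adjusted p = 0.0197). Mcm3 was at 12.2 and 8.24 CPM in RC control and 24.9 and 25.1 CPM in TSC1 KO islets (1.29 ± 0.28 SE, edgeR adjusted p = 0.0302), and Mcm5 at 6.95 and 9.27 CPM and 18.2 and 16.7 CPM (1.10 ± 0.28 SE, edgeR adjusted p = 0.0463). In each of the 3 genes both TSC1 KO libraries lay above both controls. Mcm2, at 7.11 and 11.03 CPM in RC control and 16.5 and 22.1 CPM in TSC1 KO islets, also did not overlap and missed the threshold (1.08 ± 0.33 SE, edgeR adjusted p = 0.0688). The remaining subunits Mcm4 (0.71 ± 0.39 SE) and Mcm7 (0.59 ± 0.24 SE) had positive log2 fold changes that were not called. Without either TSC1 KO library no gene of the table was called in edgeR, so these calls need both. The call of Mcm3 was also lost with library size as the only scaling (0.0506; alternatives 0.00754 to 0.197). Mcm5 was lost without RC control library 1 (0.0718), under the same scaling (0.0979) and in DESeq2 (0.103), with alternatives from 0.0342 to 0.230.

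Of the entry regulators, Cdk2 was at 7.27 and 4.56 CPM in RC control and 14.0 and 13.7 CPM in TSC1 KO islets (1.23 ± 0.35 SE, edgeR adjusted p = 0.0576). Cdt1 was at 3.32 and 1.91 CPM and 6.06 and 10.7 CPM (1.66 ± 0.51 SE, edgeR adjusted p = 0.0702). Neither overlapped, and neither passed. Ccne2, which encodes cyclin E2, lay the other way at 4.90 and 4.27 CPM and 1.86 and 2.01 CPM (-1.24 ± 0.47 SE, edgeR adjusted p = 0.117). Ccne1 was at 4.42 and 1.18 CPM in RC control and 1.63 and 0.334 CPM in TSC1 KO islets, too low to be tested. E2f1 was at 7.74 and 14.6 CPM and 7.46 and 5.02 CPM, with the higher TSC1 KO library just below the lower control (-0.82 ± 0.44 SE, edgeR adjusted p = 0.226).

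Of the clamp and the nucleotide enzymes none was called. Pcna was at 26.5 and 17.9 CPM in RC control and 22.1 and 26.4 CPM in TSC1 KO islets, with overlap (0.12 ± 0.27 SE, edgeR adjusted p = 0.776). Rrm2 was at 1.58 and 2.94 CPM and 1.40 and 3.01 CPM, with overlap (-0.09 ± 0.65 SE, edgeR adjusted p = 0.937).

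The mitotic genes were low in these islets and the groups mostly overlapped. Mki67 was at 8.37 and 12.7 CPM in RC control and 9.32 and 15.05 CPM in TSC1 KO islets (0.20 ± 0.37 SE, edgeR adjusted p = 0.74). Top2a was at 5.53 and 10.0 CPM and 8.86 and 13.0 CPM (0.48 ± 0.41 SE, edgeR adjusted p = 0.443). In both genes library 1 was the lower one of each pair and the groups overlapped. Cdk1 was at 3.48 and 3.53 CPM in RC control and 2.10 and 5.69 CPM in TSC1 KO islets (0.10 ± 0.58 SE). Plk1 was at 1.58 and 2.21 CPM and 2.33 and 1.34 CPM (-0.01 ± 0.61 SE), and Foxm1 at 5.21 and 7.50 CPM and 6.06 and 7.69 CPM (0.10 ± 0.38 SE). Under scaling by library size alone, Pcna, Mki67, Cdk1 and Foxm1 changed sign, as did E2f2 and Cdc6. Mybl2, a partner of Foxm1, was at 2.05 and 3.24 CPM in RC control and 0.932 and 0.334 CPM in TSC1 KO islets (-1.94 ± 0.73 SE, edgeR adjusted p = 0.113). Ccnb1 had 6 and 7 counts in RC control and 0 in both TSC1 KO libraries, where 0 counts allow up to 0.683 and 0.855 CPM of the unscaled totals. Ccnb2, Aurkb, Bub1, Birc5 and Depdc1a were also too low to be tested.

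Markers of other cell types are given beside these values, in the fit that called 8.63% of all genes higher and 10% lower. Endothelial markers summed to 2519 and 2766 CPM in RC control and 5384 and 4009 CPM in TSC1 KO islets, with 3 of 10 called higher and none at 0. Duct markers summed to 1336 and 428 CPM against 2565 and 3599 CPM, with 3 of 9 called higher and none lower. Mesenchymal markers summed to 1552 and 1021 CPM against 1884 and 5612 CPM, with none of 11 called, and immune markers to 1106 and 781 CPM against 959 and 785 CPM, with 1 of 11 called lower. Of 10 β-cell markers 9 were called lower, and of 7 markers of other endocrine cells 5 were called lower and 1 higher. Of 9 acinar markers 1 was called lower, and none of 5 erythroid markers was called. Their part in the values of the helicase genes was not tested.

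Of 40 further replication genes tested, 2 rose, the DNA ligase Lig1 (1.19 ± 0.23 SE) and Pole, the catalytic subunit of DNA polymerase epsilon (1.85 ± 0.44 SE). One fell, the dUTPase gene Dut (-1.17 ± 0.25 SE). Of 33 further mitotic genes tested, Lmnb1, a nuclear lamin, rose (1.02 ± 0.26 SE) and Spc25 fell (-2.96 ± 0.32 SE). Of 26 G1 regulators tested, 2 rose, the pocket protein gene Rbl2 (0.98 ± 0.19 SE) and the E2F partner Tfdp2 (0.83 ± 0.20 SE), and none fell. In each list and direction the share called lies below the 8.63% higher and 10% lower over all genes. All 7 lost their call when either TSC1 KO library was left out. The medians of the 3 lists were 0.11, 0.16 and -0.06.

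The third comparison, of Db with BKS control islets (n = 2 each), addresses what changes in islets of the Db mice at 4 weeks. Mitotic genes fell and S phase genes split: 13 of 21 mitotic genes tested were called lower and none higher, while 3 of 16 S phase genes tested were called higher and 3 lower. DESeq2 with 1 islet library left out, an alternative chosen after seeing the data, called 5 to 7 mitotic genes and 0 to 1 S phase genes lower. Here the fit called 24.3% of all 14369 genes higher and 23.9% lower, so the S phase share lies near the background. The median log2 fold change was -1.37 over the mitotic genes and 0.23 over the S phase genes, against -0.03 over all genes. All 21 mitotic fold changes were negative, though those of Plk1, Foxm1 and Bub1b were positive under scaling by library size alone. Over the alternatives the log2 fold change of Birc5 reached up to 0.053. The groups did not overlap for 17 of the 21, all lower in Db islets, where 37.5% of all genes were lower without overlap. Of the S phase genes tested 6 were higher and 5 lower without overlap, against 37.2% higher over all genes.

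**Figure D5:**
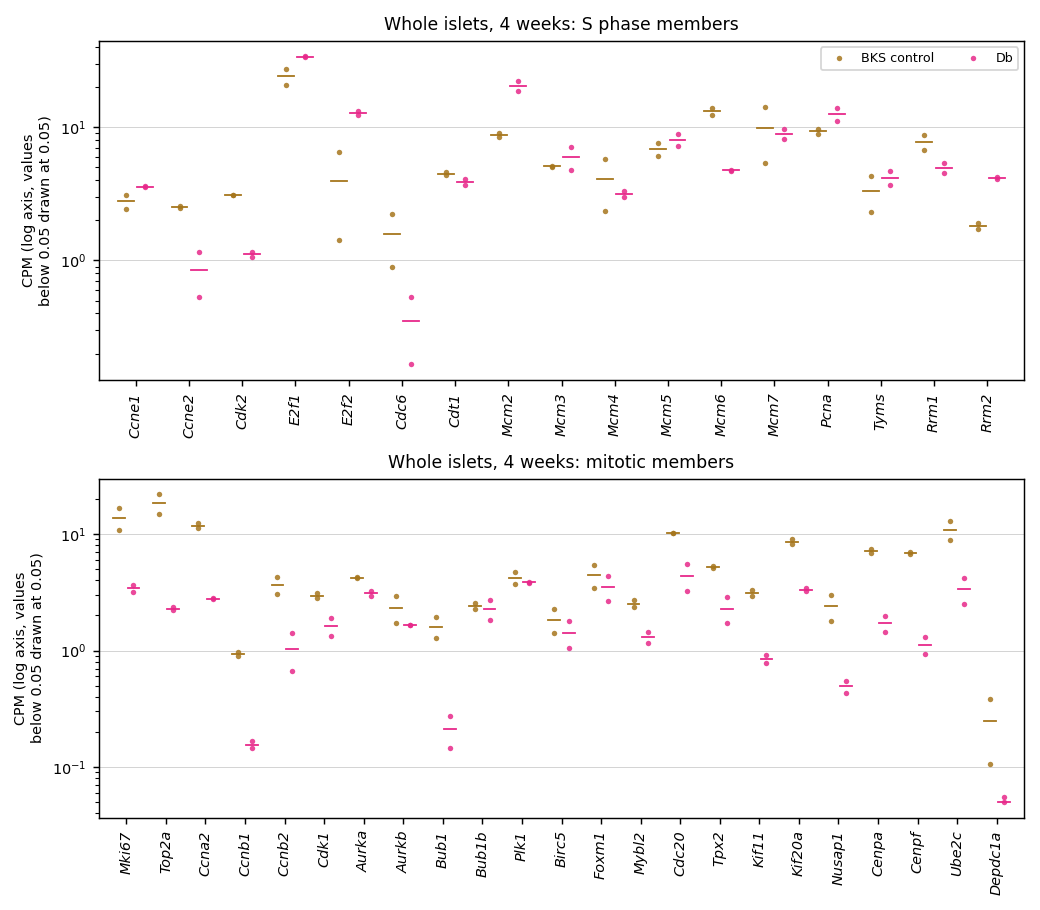
CPM of each of the 40 genes in the 2 BKS control and 2 Db islet libraries on a log axis, with a bar at each mean and values below 0.05 drawn at 0.05. Among the S phase genes Mcm2, Rrm2 and E2f2 lie higher and Mcm6, Cdk2 and Ccne2 lower in Db islets. Among the mitotic genes Top2a, Mki67, Bub1 and Cenpf show wide gaps, and Plk1, Foxm1, Bub1b and Birc5 overlap.

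Among the helicase subunits only Mcm2 was called higher and only Mcm6 lower, where 24.3% of all genes were called higher and 23.9% lower. Mcm2 was at 9.00 and 8.47 CPM in BKS control and 18.6 and 22.3 CPM in Db islets and rose 2.34-fold (1.23 ± 0.24 SE, edgeR adjusted p = 0.000128). Mcm6 was at 13.9 and 12.5 CPM in BKS control and 4.81 and 4.70 CPM in Db islets and fell 2.77-fold (-1.47 ± 0.26 SE, edgeR adjusted p = 4.31e-05). Neither gene's groups overlapped, and both calls held where 1 choice was changed at a time. DESeq2 without Db library 2 called no S phase gene. Mcm5 was at 7.60 and 6.03 CPM and 7.19 and 8.82 CPM, with overlap (0.23 ± 0.27 SE, edgeR adjusted p = 0.512). Mcm3 (0.23 ± 0.30 SE), Mcm4 (-0.33 ± 0.37 SE) and Mcm7 (-0.16 ± 0.34 SE) overlapped too.

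Among the entry regulators, both called falls were of the cyclin E kinase. Cdk2 was at 3.11 and 3.08 CPM in BKS control and 1.161 and 1.07 CPM in Db islets (-1.47 ± 0.40 SE, edgeR adjusted p = 0.00353), and Ccne2 at 2.46 and 2.57 CPM and 1.161 and 0.533 CPM (-1.58 ± 0.46 SE, edgeR adjusted p = 0.00594). The Ccne2 call was lost without Db library 2 (0.159) and in DESeq2 (0.0511), with alternatives from 0.0035 to 0.159. Its log2 fold change was -0.50 with the trend over GC content removed and -2.20 without Db library 1. E2f2, an activating E2F, was at 6.53 and 1.41 CPM in BKS control and 12.4 and 13.1 CPM in Db islets and rose (1.64 ± 0.51 SE, edgeR adjusted p = 0.0332). Its size hung on the controls, with a log2 fold change of 3.20 without BKS control library 1 and 1.00 without library 2, and in DESeq2 the adjusted p was 0.157 (alternatives 5.65e-12 to 0.157). E2f1 was at 27.5 and 20.7 CPM and 34.2 and 33.4 CPM, higher without overlap and not called (0.48 ± 0.21 SE, edgeR adjusted p = 0.0595). Ccne1 was at 3.11 and 2.44 CPM and 3.59 and 3.54 CPM (0.35 ± 0.34 SE, edgeR adjusted p = 0.408). Cdc6 was too low to be tested, at 2.25 and 0.898 CPM in BKS control and 0.166 and 0.533 CPM in Db islets.

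The 2 subunits of ribonucleotide reductase had fold changes of opposite sign. Rrm2 was at 1.71 and 1.93 CPM in BKS control and 4.26 and 4.07 CPM in Db islets and rose 2.29-fold (1.20 ± 0.36 SE, edgeR adjusted p = 0.00789). Rrm1 was at 6.75 and 8.73 CPM and 5.42 and 4.51 CPM, lower without overlap and not called (-0.64 ± 0.29 SE, edgeR adjusted p = 0.0654). With the trend over GC content removed, the log2 fold change was -0.059 for Rrm1 and 1.52 for Rrm2. Pcna was at 8.89 and 9.75 CPM in BKS control and 11.2 and 14.0 CPM in Db islets (0.43 ± 0.25 SE, edgeR adjusted p = 0.151).

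Top2a had the largest fall of the mitotic genes, from 22.1 and 14.8 CPM in BKS control to 2.21 and 2.38 CPM in Db islets (8.02-fold, -3.00 ± 0.29 SE, edgeR adjusted p = 2.19e-09). Mki67 fell from 16.6 and 10.8 CPM to 3.21 and 3.68 CPM (3.98-fold, -1.99 ± 0.28 SE, edgeR adjusted p = 2.02e-06). In both genes the higher Db library was well under the lower control. Ccna2 fell from 11.2 and 12.3 CPM to 2.82 and 2.76 CPM (-2.07 ± 0.28 SE, edgeR adjusted p = 1.11e-06) and Ccnb2 fell 3.51-fold (-1.81 ± 0.41 SE, and -2.44 without Db library 2). Bub1, which recruits checkpoint proteins to kinetochores, fell from 1.93 and 1.28 CPM to 0.276 and 0.145 CPM (-2.92 ± 0.62 SE). Its values rest on 18 and 10 counts in BKS control and 5 and 3 counts in Db islets.

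The kinetochore and spindle genes shared the direction. Cenpf fell from 6.75 and 7.06 CPM in BKS control to 0.940 and 1.31 CPM in Db islets (-2.60 ± 0.35 SE, edgeR adjusted p = 8.83e-07) and Cenpa from 7.39 and 6.80 CPM to 1.44 and 1.99 CPM (-2.04 ± 0.33 SE, edgeR adjusted p = 1.2e-05). Nusap1 fell 4.86-fold, Kif11 3.67-fold and Kif20a, a kinesin of cytokinesis, 2.58-fold. With the GC trend removed the log2 fold changes of Nusap1, Kif11 and Bub1 were -1.57, -1.20 and -2.15. Tpx2 fell 2.28-fold (edgeR adjusted p = 0.00511), a call lost without Db library 1 (0.105) and with library size as the only scaling (0.0681; alternatives 0.00367 to 0.105). Of the genes that end mitosis, Ube2c fell from 8.89 and 12.8 CPM to 2.49 and 4.22 CPM and Cdc20 from 10.2 and 10.3 CPM to 3.26 and 5.48 CPM (-1.22 ± 0.29 SE, edgeR adjusted p = 0.00104).

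The mitotic kinases and transcription factors were not called, with the exception of Bub1. Cdk1 was at 3.11 and 2.82 CPM in BKS control and 1.33 and 1.89 CPM in Db islets, lower without overlap (-0.87 ± 0.38 SE, edgeR adjusted p = 0.0607). Plk1 was at 4.71 and 3.72 CPM and 3.81 and 3.88 CPM, with overlap (-0.14 ± 0.32 SE, edgeR adjusted p = 0.739). Foxm1 was at 3.43 and 5.39 CPM and 2.65 and 4.36 CPM, also with overlap (-0.31 ± 0.34 SE, edgeR adjusted p = 0.472). Aurka (-0.44 ± 0.32 SE), Aurkb (-0.48 ± 0.41 SE), Bub1b (-0.07 ± 0.38 SE), Birc5 (-0.37 ± 0.45 SE) and Mybl2 (-0.94 ± 0.41 SE) were not called. Ccnb1, at 0.964 and 0.898 CPM and 0.166 and 0.145 CPM, and Depdc1a were too low to be tested.

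Endothelial markers summed to 904 and 848 CPM in BKS control and 625 and 621 CPM in Db islets, with 3 of 10 called higher and 5 lower. Over all genes tested, 24.3% were called higher and 23.9% lower. Immune markers summed to 232 and 190.4 CPM against 192 and 181 CPM, with none of 10 called higher and 4 lower, and Cd3e was at 0 in both controls and in Db library 2. Mesenchymal markers went the other way, at 320.1 and 426 CPM against 628 and 594 CPM, with 6 of 10 called higher and 1 lower. Duct markers summed to 431 and 423 CPM against 939 and 931 CPM, with 3 of 7 called higher and 2 lower. Acinar markers summed to 67.5 and 73.2 CPM against 364 and 217 CPM, with 6 of 9 called higher and 1 lower. Erythroid markers summed to 18.1 and 10.3 CPM against 38.6 and 59.3 CPM, with 4 of 5 called higher and none lower. Of 7 markers of other endocrine cells 1 was called higher and 1 lower. Of 10 β-cell markers, 7 were called lower and 1 higher. Their part in the fall of the mitotic genes was not tested.

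Of 41 further replication genes tested, 3 were called higher and 13 lower, where 24.3% of all genes were called higher and 23.9% lower. The 5 with the lowest p all fell: Dut (-1.53 ± 0.22 SE), Rfc5 (-1.62 ± 0.27 SE), the primase subunit Prim1 (-2.26 ± 0.42 SE), Dbf4 (-2.30 ± 0.45 SE), which activates the origin-firing kinase Cdc7, and Orc2 (-1.31 ± 0.28 SE), a subunit of the origin recognition complex. Of 47 further mitotic genes tested, 3 were called higher and 21 lower, led by the kinase Pbk (-2.18 ± 0.36 SE), the spindle protein Hmmr (-2.64 ± 0.44 SE), the condensin subunit Smc4 (-1.66 ± 0.28 SE), securin, encoded by Pttg1 (-1.96 ± 0.40 SE), and Spc25 (-0.96 ± 0.20 SE). Of 27 G1 regulators tested, 5 were called higher and 7 lower, shares near or below the 24.3% and 23.9% over all genes. Among the 5 with the lowest p the inhibitors of cyclin-dependent kinases Cdkn2c (-1.72 ± 0.22 SE) and Cdkn1c (-2.32 ± 0.30 SE) fell, as did the retinoblastoma gene Rb1 (-1.31 ± 0.30 SE). Fzr1 (1.29 ± 0.21 SE) and the repressive E2F gene E2f4 (1.12 ± 0.22 SE) rose. The medians of the 3 lists were -0.52, -0.77 and -0.21.

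Spc25 was singled out after its values were seen, because its level stood apart from the other kinetochore genes. It was at 89.7 CPM in RC control and 11.4 CPM in TSC1 KO islets on average, and at 152 CPM in BKS control and 78.1 CPM in Db islets. The median of the other 57 further mitotic genes was 1.96 and 2.10 CPM in the former table and 2.32 and 1.04 CPM in the latter. In RefSeq's gene order Spc25 lies between Nostrin and G6pc2, a glucose-6-phosphatase gene of β-cells. G6pc2 had log2 fold changes of 1.49 ± 0.20 SE in adult β-cells, -3.38 ± 0.40 SE in TSC1 KO islets and -0.94 ± 0.24 SE in Db islets, and Spc25 0.85 ± 0.24 SE, -2.96 ± 0.32 SE and -0.96 ± 0.20 SE. Nostrin had 1.03 ± 0.38 SE, 0.05 ± 0.26 SE and -1.49 ± 0.39 SE in the same order. The part of reads from either neighbouring gene in the Spc25 counts was not tested.

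A joint fit over the 8 islet libraries tested whether the Db and TSC1 KO effects differed. Of 21 mitotic genes tested, 8 had a lower fold change in Db than in TSC1 KO islets and none a higher one, where 13.2% of the 15702 genes tested were lower and 18.6% higher. They were Mki67 (-2.09 ± 0.48 SE, edgeR adjusted p = 0.00576), Top2a (-3.38 ± 0.50 SE, edgeR adjusted p = 0.000409), Ccna2, Bub1, Cdc20, Nusap1, Cenpa and Cenpf. Bub1 had 7 and 2 counts in RC control and 4 and 5 in TSC1 KO islets, too low to be tested in that table alone. Of the 17 S phase genes, Mcm6 (-2.80 ± 0.35 SE, edgeR adjusted p = 0.000146), Cdk2 (-2.61 ± 0.52 SE, edgeR adjusted p = 0.00257) and Cdt1 (-1.76 ± 0.56 SE, edgeR adjusted p = 0.0304) were lower and E2f1 (1.39 ± 0.44 SE, edgeR adjusted p = 0.0301) was higher. Mcm6 was higher in TSC1 KO islets and lower in Db islets, each against its own controls and each past the test. Mcm2 had log2 fold changes of 1.08 and 1.23 in the 2 comparisons, and their difference was 0.24 ± 0.39 SE (edgeR adjusted p = 0.668). The calls of Cdk2, Mcm6, Mki67 and Top2a held with any of the 8 libraries left out, and the other 8 were lost without at least 1 library, with adjusted p of up to 0.379 over the alternatives (Cenpa). Age, title prefix and table differ between the 2 islet experiments and cannot be told apart from the genotypes.

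Some of these genes overlap others in position, and a few have a named pseudogene. In the GENCODE M21 annotation 6 of the 17 S phase and 9 of the 23 mitotic genes overlap another gene or have a named pseudogene, among them Cdk2 (Pmel), Ccne2 (Ints8), Ccna2 (Exosc9), Top2a (small RNA genes), Cdc20 (Elovl1), Kif20a (Cdc23), Nusap1 (Oip5) and Ube2c (Tnnc2), on the opposite strand or, for Top2a, on either. Whether the counting used the strand was not stated, so their values are uncertain by what the neighbour adds. Without these genes 7 of 14 mitotic genes were lower in adult β-cells, 0 of 10 tested were called in TSC1 KO islets and 6 of 13 tested were lower in Db islets. The S phase genes left had 1 of 11 lower, 3 of 10 higher, and 3 higher and 1 lower of 10.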

How the data were processed

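RNA of 6 β-cell and 8 islet libraries was sequenced after preparation with the SMARTer Stranded kit, per the labels' protocols. The submitters' processing notes name HTSeq 0.7.1, cutadapt 1.13, DESeq2 1.16.0, GSNAP, and as builds mm9 and NCBIM37. They give no role for either build and no strand setting. The values deposited by the authors are raw gene counts, whole numbers of reads per gene, in 3 tables. Among the neonatal columns 2 share the heading number 3 and none carries number 2. They are called 3a and 3b here and were taken as separate samples, though the headings do not show which sample each is. Rows that name no gene were left out of library sizes and tests. The RC control and TSC1 KO counts held no such rows. In the other libraries these rows took the rest of all reads, with 53.6% not aligned in adult library 3. Reads not aligned were 18.0% in BKS control library 1, 5.19% in BKS control library 2, and 2.71% and 2.18% in the Db libraries.

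Each table was fitted with edgeR 4.0.16 in R 4.3.3 (filterByExpr with minimum count 10 and minimum total 15, TMM scaling, robust quasi-likelihood F test, two-sided, Benjamini-Hochberg adjustment over all genes tested, threshold 0.05). The difference of the 2 genotype effects was tested as the interaction of table and genotype in one fit of all islet libraries. Standard errors are the log2 fold change over the root of F. DESeq2 1.42.0 and limma-voom (limma 3.58.1), other scalings, no filter and each library left out were alternatives. The scripts were tested on simulated data. Symbols, lengths and GC content came from GENCODE M21 (GRCm38), which matched 32620 of 37310 identifiers, and promoters from RefSeq (GRCm38.p6), both later builds than the submitters' notes name, so no coordinates of counted genes are given.

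The genes, the lists of other genes and the motifs were chosen with earlier results of these data known. In each comparison, values are given for a fixed set (Mcm2, Mcm5, Pcna, Rrm2, Ccne1, E2f1, Mki67, Top2a, Ccnb1, Cdk1, Plk1 and Foxm1), for called genes and for others with a log2 fold change of at least 1 in size. From each other list the 5 called genes of lowest p are named. Floors of 3 counts cover counting error alone, since no molecular identifiers were counted.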

Additional observations from a re-analysis of the deposited data

How the results depend on the processing

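In adult β-cells, S phase genes called lower, 1 in edgeR, were 2 with library size as the only scaling or in limma-voom, 3 in DESeq2, 5 with no filter and 0 to 3 with a library left out. Mitotic genes called lower, 10 in edgeR, ranged from 4 to 14 with a library left out, and E2f1 from -0.34 to 0.23 (log2). In TSC1 KO islets, S phase genes called higher, 3 in edgeR, were 1 with library size only, 6 with no filter and 0 to 5 with a library left out. Their median was 0.33 with library size only, 0.55 with no filter and 0.40 to 0.73 with a library left out. The mitotic median was -0.17 with library size only and -0.22 to 0.12 with a library left out. There, library size only gave -0.13 for Pcna, -0.072 for Mki67, -0.17 for Cdk1 and -0.16 for Foxm1, and limma-voom gave -0.11 for Cdk1 and 0.026 for Plk1. With a library left out the ranges were -0.14 to 0.43 (Pcna), -0.69 to 0.42 (Rrm2), -0.18 to 0.51 (Mki67), -0.74 to 0.69 (Cdk1), -0.51 to 0.29 (Plk1) and -0.14 to 0.38 (Foxm1). In Db islets the S phase median was 0.54 with library size only, 0.33 with no filter, -0.0255 with the GC trend removed and -0.059 to 0.40 with a library left out, so its sign is not fixed. The mitotic median was -1.06 with library size only and -1.81 to -1.27 with a library left out. Library size only gave 0.25 for Bub1b, 0.16 for Plk1 and 0.042 for Foxm1, and leaving out a library -0.26 to 0.076 (Plk1) and -0.70 to 0.075 (Foxm1). For the difference of Db and TSC1 KO effects, S phase genes called higher were 2 with no filter and 0 to 2 with a library left out, those called lower 2 to 5, and mitotic genes called lower 4 with library size only and 3 to 7 with a library left out. Library size only moved the median of all genes to -0.19, -0.25 and 0.29 in the 3 comparisons. Of the other values, 174 counts and medians and 296 fold changes of single genes kept their direction and call or stayed within 1.5 times or 1 SD, and 13 fold changes lost and 9 gained a call. The cause was not tested.

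No paired analysis was possible for β-cells because the neonatal columns carry number 3 more than once and no number 2. Islet samples share only a number: deviations of same-numbered libraries correlated at -0.0547 and -0.0351. With the replicate number as a block, 2 S phase genes were called higher and no mitotic gene in TSC1 KO islets (Mcm5 0.0775), and the counts in Db islets were 3 higher and 3 lower for S phase genes and 13 lower for mitotic genes. Fits with 1 library in a group assume that it varies like the other group. Chosen after seeing the data, DESeq2 with 1 islet library left out called 5 to 7 mitotic genes lower in Db islets and 0 to 2 S phase genes higher, against 12 to 14 and 2 to 4 in edgeR and limma-voom. Depth limits the TSC1 KO table most, where 7 of the 40 genes were too low to be tested.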
